A study of Mus musculus with 6 samples.

Results

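The nuclear-encoded subunits of the mitochondrial respiratory chain and ATP synthase were examined in fully-grown oocytes of wild-type (Marf1+/+) and Marf1 ENU/ENU mutant mice, whose Marf1 allele was induced with the chemical mutagen ENU. Both genotypes were on mixed C57BL/6J;C3HeB/FeJ stock. Oocytes came from 23-day-old females that had received 5 IU of the follicle-stimulating hormone preparation eCG at 21 days, 46 hours before collection, and their cumulus cells were stripped off mechanically. Each genotype gave 3 samples, each on 1 microarray, and how many oocytes or animals stand behind a sample is unknown here. Members were chosen by gene symbol alone. They are the Ndufa, Ndufb, Ndufc, Ndufs and Ndufv genes without the Ndufaf assembly factors, Sdha to Sdhd, and the genes whose names begin with Uqcr, Cox4 to Cox8 or Atp5. Of 19938 genes with a probe set naming 1 gene, 82 were members, namely 36 of complex I, 4 of complex II, 8 of complex III, 17 of complex IV and 17 of complex V, the ATP synthase. Another 6 probe sets named a member together with another gene and were left out, so that Cox7c and Ndufb4 have no value.

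The respiratory chain passes electrons from NADH (complex I) and succinate (complex II) through ubiquinone, complex III and cytochrome c to oxygen at complex IV. Complexes I, III and IV pump protons as they do so, and the ATP synthase uses the return of the protons to make ATP. Most subunits are encoded in the nucleus, and a small core is encoded in mitochondrial DNA. Oocytes rely on this pathway because they use glucose poorly and burn pyruvate delivered by the cumulus cells. Fully-grown oocytes transcribe little, so their mRNA levels mostly reflect what was stored during growth and how it is kept or degraded.

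Values are log2 expression per probe set, made with RMA, so a difference of 1 is a 2-fold change and a change in the whole mRNA content of an oocyte cannot be seen. Marf1 itself was lower in the mutant, at 5.98, 6.40 and 6.16 against 9.21, 9.16 and 9.31. The oocyte label held, since none of 17 oocyte marker genes lay at a dim level, and Gdf9 stood at 11.73 ± 0.03 in wild type and 11.65 ± 0.10 in the mutant (mean ± SD, n = 3 each). Kit, the receptor of oocyte growth, was the 1 marker of these that changed, and it fell from 9.18 to 7.90. A dim level is taken here as 4.51, the 95th percentile of the mean levels of 1190 olfactory and vomeronasal receptor genes. Of 21 cumulus and granulosa cell markers 10 lay below it, such as Amh and Fshr, and the others lay above it, such as Foxl2 (mean 5.11) and Gja1 (5.62). The summed linear signal of the 21 was 850 to 943 in wild type and 1517 to 1866 in the mutant. Their mean log2 level overlapped, at 4.59 to 4.74 in wild type and 4.57 to 4.81 in the mutant. The median log2 fold change of the 21 was -0.09. The genes that rose were Nr5a2, from 8.71 to 10.17, and Kitl, from 3.72 to 5.66, while Ptgs2 fell from 5.14 to 4.14. The part of this signal in the differences below was not tested. Mutant replicate 3 stood apart, correlating at 0.970 and 0.973 with the other mutant arrays, which correlated with each other at 0.985. Its values over all probe sets had an SD of 2.04 and a median of 4.76. The other arrays had SDs of 2.14 to 2.20 and medians of 4.56 to 4.67, so the deposited values did not share 1 distribution.

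Most subunit mRNAs differed little between the genotypes, and the few past the threshold in the fit reported lay in complexes III, IV and V. In the mutant 3 of the 82 genes rose and 3 fell past the threshold (limma over all probe sets, Benjamini-Hochberg adjusted p under 0.05), and the other 76 did not pass. Those that rose were Uqcrc1 and Uqcrb of complex III and Atp5g3 of the ATP synthase. Those that fell were Atp5g1 and Atp5e of the ATP synthase and Cox6a2 of complex IV. Some alternative fits, given below, also called genes of complexes I and II. The share of members called was 7.32%, against 10.4% of all genes (6.40% higher and 4.04% lower), and it was 7.69% of the 78 members above the dim level, against 16.2% of such genes. Without mutant replicate 3 the count was 3 higher and 2 lower, 2 and 1 without wild-type replicate 1 or mutant replicate 1, 2 and 2 without wild-type replicate 2, 1 and 1 without wild-type replicate 3, and 1 and 3 without mutant replicate 2. For 73 of the 76 genes that did not pass, the unadjusted 95% interval of the log2 fold change lay within 2-fold in either direction. The exceptions were Sdha, Cox6b2 and Cox8c.

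**Figure D1:**
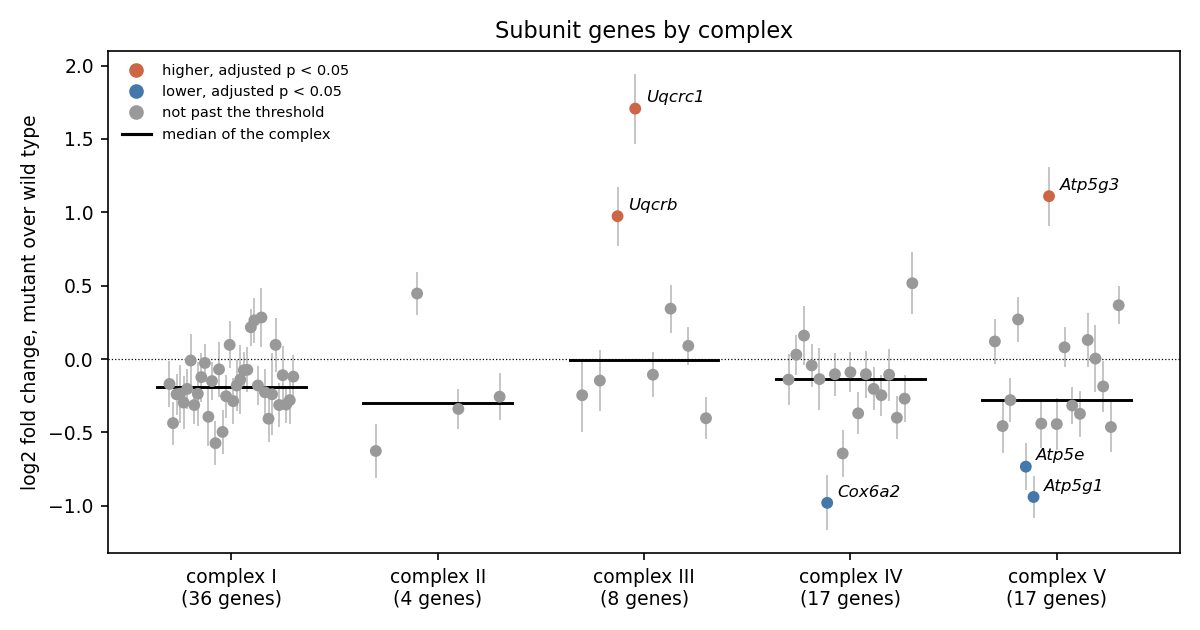
Log2 fold change of each subunit gene, mutant over wild type, with its standard error (bars) from 3 arrays per genotype, in alphabetical order within each complex. Uqcrc1, Uqcrb and Atp5g3 lie above and Atp5g1, Atp5e and Cox6a2 below the other genes, and the medians (black lines) run from -0.30 in complex II to -0.01 in complex III.

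Below the threshold the balance leaned lower. At an unadjusted p under 0.05 in limma 21 members were lower and 6 higher, that is 25.6% and 7.32%, where 13.5% and 11.0% of all genes were. All 3 mutant values lay below all 3 wild-type values for 28 members (34.1%, against 17.7% of all genes) and above them for 10 (12.2%, against 12.9%). Among genes above the dim level the share below was 25.1%, where 34.6% of the members above it were. The median log2 fold change of the members was -0.18, with 62 of 82 below 0, and that of all genes was -0.04, or -0.09 above the dim level. The members' median was -0.06 after cyclic loess normalization, with 10 lower and 11 higher at an unadjusted p under 0.05, and 49 of the 82 were below 0 there. The count of lower members fell whichever array was left out, in fits that hold fewer arrays. It was 9 without mutant replicate 1 (5 higher), 10 without wild-type replicate 2 (5 higher), 11 without wild-type replicate 3 (4 higher) and 12 without wild-type replicate 1 (5 higher). Without mutant replicates 2 or 3 it was 18 (4 higher) and 15 (6 higher). Over these fits 57 to 65 of the 82 members were below 0, and their median log2 fold change ran from -0.26 to -0.13.

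The lean was not shared by the 3 mutant arrays. The median deviation of the members from the wild-type mean was -0.26 on mutant replicate 1 and -0.25 on mutant replicate 3, but 0.00 on mutant replicate 2. Wild-type arrays lay between -0.02 and 0.03. Mutant replicates 1 and 3 gave the lowest of the 6 values for 24 and 27 genes, and mutant replicate 2 gave the highest for 23 and the lowest for 5. In all, 38 members (46.3%) lay below the wild-type mean on all 3 mutant arrays, where 31.2% of all genes and 39.0% of genes above the dim level did. Above it on all 3 lay 12 members (14.6%), against 21.0% and 24.0%. Over all genes the median deviations of mutant replicates 1, 2 and 3 were -0.09, -0.08 and 0.03, and over genes above the dim level -0.10, -0.09 and -0.08. The higher position of mutant replicate 2 in the subunits was thus not seen in either larger set.

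**Figure D2:**
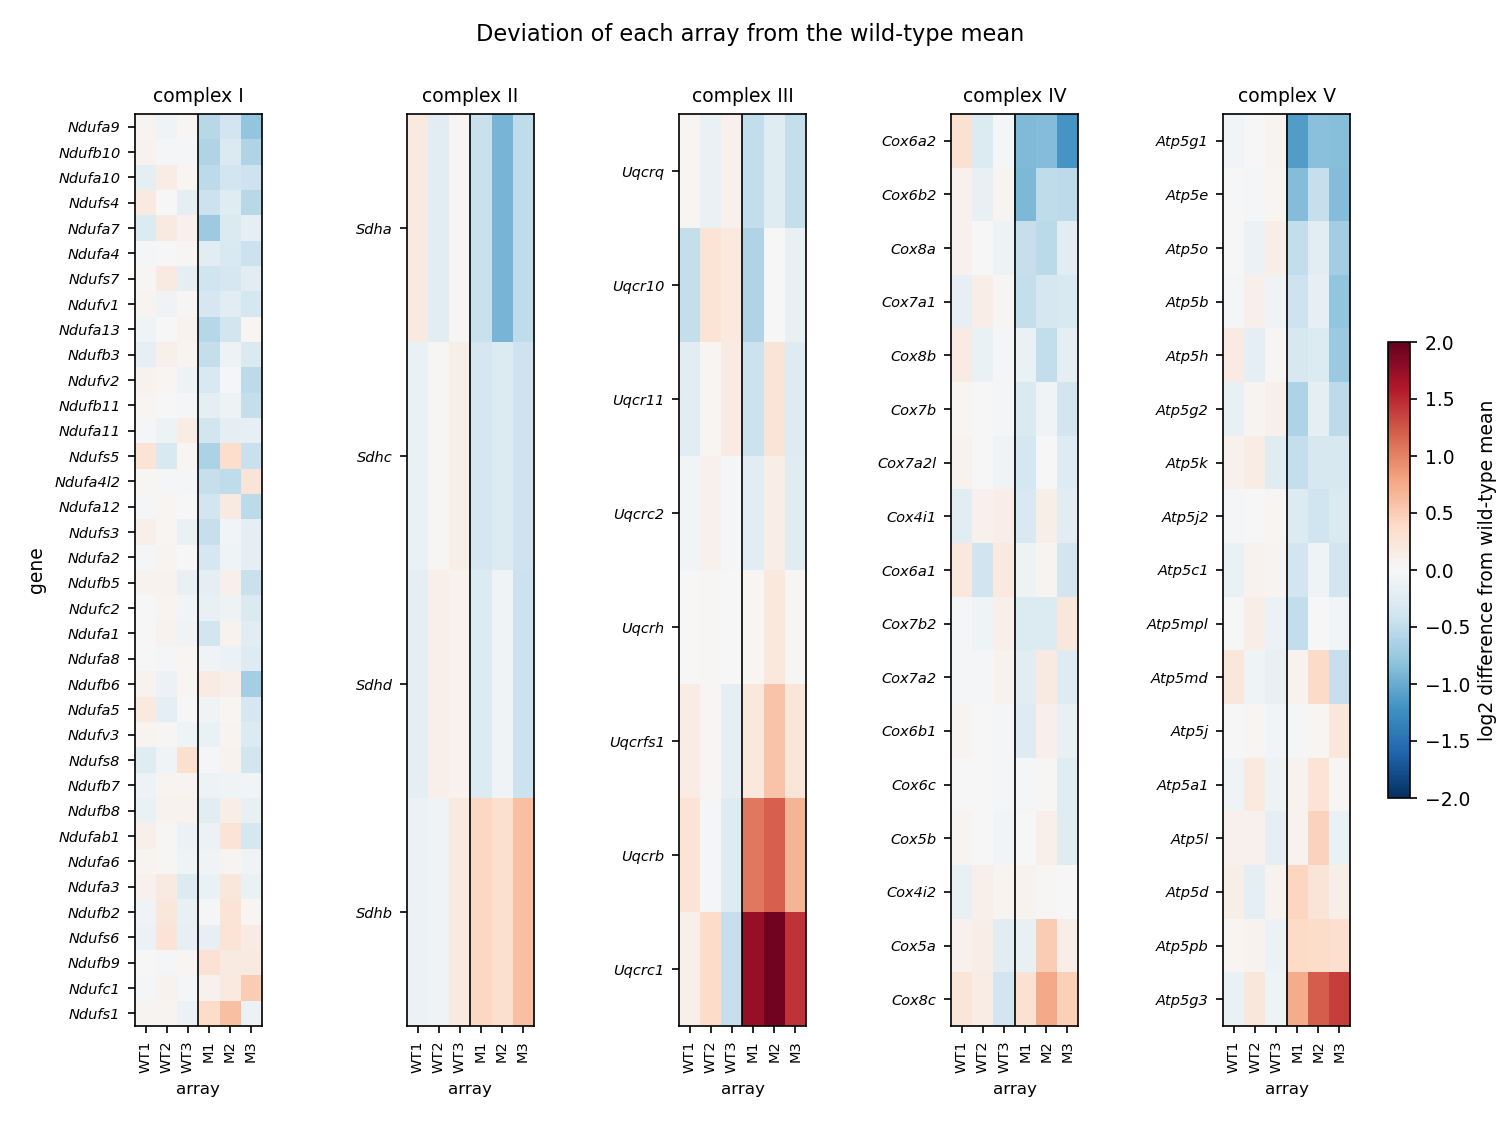
Difference of each array from the wild-type mean of the gene (colour, log2 scale) for the 82 subunit genes, with genes in rows sorted by fold change within each complex and arrays in columns (WT1 to WT3 wild type, M1 to M3 mutant). Uqcrc1, Uqcrb and Atp5g3 are red and Atp5g1 and Cox6a2 blue on every mutant array, while most complex I genes are pale and bluer on M1 and M3 than on M2.

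In complex I, the NADH dehydrogenase, no gene passed the threshold. Of its 36 measured subunits 0 rose and 0 fell in limma, with 6 lower (16.7%) and 0 higher at an unadjusted p under 0.05. The 36 were assigned by symbol and hold Ndufa4, which was among the 6 lower, and Ndufa4l2. The share lower was near the 13.5% of all genes and under the 20.2% of genes above the dim level. The fold changes ran from -0.57 to 0.28 (log2) with a median of -0.19, and 31 of the 36 were below 0 (86.1%, against 56.5% of all genes). After cyclic loess the median was -0.06, with 22 of 36 below 0. The catalytic core, which is shared with bacteria and carries the flavin and the iron-sulfur clusters, had 6 measured subunits and a median of -0.25. Among them Ndufv1, which holds the flavin that accepts electrons from NADH, stood at 7.5, 7.37 and 7.46 in wild type and at 7.10, 7.21 and 7.09 in the mutant. The groups did not overlap, but the log2 fold change of -0.31 (SE 0.13) had an adjusted p of 0.231 (limma). The other core subunits had log2 fold changes of -0.31 for Ndufs7, -0.28 for Ndufv2, -0.23 for Ndufs3, -0.11 for Ndufs8 and 0.28 for Ndufs1, with adjusted p of 0.315 to 0.851. Ndufs1, the largest core subunit, was the only one of the 6 with a positive value, at 6.60, 6.59 and 6.43 in wild type against 6.90, 7.14 and 6.43.

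The 30 accessory subunits of complex I, which surround the core and stabilise it, had a median of -0.18. The furthest from 0 was Ndufa9, a subunit near the ubiquinone site, which stood at 9.94, 9.81 and 9.91 in wild type and at 9.33, 9.51 and 9.10 in the mutant. Its log2 fold change was -0.57 (SE 0.15, limma adjusted p = 0.0664). The mutant values all lay below the wild-type values, and the gene passed in 5 alternative fits, such as that over 1 row per gene and that after quantile normalization. Ndufb10 of the membrane arm had -0.50 (SE 0.15, adjusted p = 0.0956) and passed in those 2 fits alone, and Ndufa10 had -0.44 (SE 0.15, adjusted p = 0.135). Ndufa4, named for complex I but now counted with complex IV, had -0.31 (adjusted p = 0.236), and its isoform Ndufa4l2 lay at a dim level in both genotypes. By symbol, both are among the 30. Ndufb11, at 10.20 in wild type and 9.94 in the mutant, differed by -0.25. Its second probe set lay lower, at 7.26 and 6.98, and differed by -0.27. The assembly factor Ndufaf1, not a subunit, was measured at 4.66 in wild type and 9.30 in the mutant (log2 fold change 4.64, SE 0.28, adjusted p = 1.54e-04). Its wild-type replicates 1 and 3, at 4.35 and 4.44, lay below the dim level.

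Complex II, succinate dehydrogenase, is an enzyme of the citric acid cycle as well as of the respiratory chain. None of its 4 genes passed in limma (0 higher and 0 lower), while 2 were lower (50%) and 1 higher (25%) before adjustment (p under 0.05). These shares were 13.5% and 11.0% over all genes, and 20.2% and 16.1% over genes above the dim level. Sdha, the flavin subunit that oxidises succinate, stood at 8.75, 8.36 and 8.59 in wild type and at 8.12, 7.64 and 8.06 in the mutant. Sdhb, the iron-sulfur subunit, lay the other way, at 7.18, 7.23 and 7.47 against 7.71, 7.62 and 7.89. The genotypes did not overlap for either gene. The log2 fold changes were -0.63 (SE 0.18, limma adjusted p = 0.0913) for Sdha and 0.45 (SE 0.15, adjusted p = 0.136) for Sdhb. Sdha passed when the fit was limited to rows above the median level or the adjustment to 1 row per gene. Of the membrane anchors, Sdhc had -0.34 (SE 0.14, adjusted p = 0.212) and Sdhd -0.26 (SE 0.16, adjusted p = 0.461).

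Complex III, the cytochrome bc1 complex, held the largest rise of the set. Uqcrc1, a core protein of the matrix side, stood at 4.95, 5.21 and 4.38 in wild type and at 6.59, 6.78 and 6.29 in the mutant. The lowest mutant value lay more than 1 log2 unit above the highest wild-type value, and wild-type replicate 3 lay below the dim level. The log2 fold change was 1.71 (SE 0.24, a 3.26-fold rise, limma adjusted p = 0.00514), and the gene passed in all 15 alternative fits. Its partner in the same core, Uqcrc2, stood at 9.26, 9.39 and 9.28 against 9.10, 9.44 and 9.07, with overlapping groups and a log2 fold change of -0.11 (SE 0.15). Uqcrb, a small subunit that helps to form the ubiquinone pocket, rose from 8.37, 8.08 and 7.84 to 9.15, 9.29 and 8.77. The groups did not overlap, and the log2 fold change was 0.97 (SE 0.20, adjusted p = 0.0263).

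Uqcrb had 3 probe sets, and all showed the rise, with log2 fold changes of 0.97, 0.87 and 1.16 and adjusted p of 0.0263, 0.0556 and 0.0173 (limma). Its call was lost without wild-type replicate 2 (adjusted p = 0.0853), without wild-type replicate 3 (0.1) and without mutant replicates 1 (0.0865) or 2 (0.0833). The other 6 subunits did not pass. Of the 8 genes 25% were thus called, against 10.4% of all genes and 16.2% above the dim level. Uqcrfs1, the Rieske iron-sulfur protein, differed by 0.34 (SE 0.16, adjusted p = 0.307) with non-overlapping groups, and Uqcrq had -0.40 (SE 0.14, adjusted p = 0.156). Uqcrh, the hinge protein that docks cytochrome c1, stood at 10.72 to 10.76 on the wild-type arrays and 10.76 to 10.94 on the mutant arrays. The median of the complex was -0.01 and took either sign between settings, from 0.11 after cyclic loess to -0.10 without mutant replicate 2. Cyc1, the cytochrome c1 subunit whose name lies outside the symbol rule, rose from 5.59, 5.85 and 5.95 to 7.16, 7.21 and 6.79 (log2 fold change 1.26, SE 0.17, adjusted p = 0.00481), with no overlap.

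Complex IV, cytochrome c oxidase, has several subunits with alternative isoforms for muscle, testis or lung, and these stood at different levels in the oocyte samples. Cox6a2, the isoform known from heart and skeletal muscle, stood at 7.98, 7.40 and 7.63 in wild type and fell to 6.78, 6.80 and 6.49 in the mutant. The groups did not overlap, and the log2 fold change was -0.98 (SE 0.19, 1.97-fold lower, limma adjusted p = 0.0201). The call was lost without wild-type replicate 1 (adjusted p = 0.0676), wild-type replicate 3 (0.0726) or mutant replicate 1 (0.0556). The widespread isoform Cox6a1 stood at 10.30, 9.69 and 10.29 against 9.99, 10.15 and 9.73, overlapping, with a log2 fold change of -0.14 (SE 0.21).

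Cox6b2, the isoform known from testis, was well above the dim level in oocytes, at 9.52, 9.28 and 9.48 in wild type and 8.53, 8.92 and 8.90 in the mutant. All mutant values lay below all wild-type values, but the log2 fold change of -0.64 (SE 0.16) had an adjusted p of 0.0552 (limma). It passed when the adjustment ran over 1 row per gene or over rows above the median level, and with an intensity trend or array weights. Its widespread counterpart Cox6b1 had a log2 fold change of -0.10 (SE 0.15). Cox8c, another isoform of the testis, had 0.52 (SE 0.21, adjusted p = 0.222), from 5.48 ± 0.34 to 6.00 ± 0.23 (n = 3 each), while Cox8a had -0.40 (SE 0.15, adjusted p = 0.174). The muscle isoforms Cox7a1 and Cox8b and the testis isoform Cox7b2 lay below the dim level in both genotypes, and the lung isoform Cox4i2 lay just above it, at 4.55 to 4.80 on the 6 arrays.

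**Figure D3:**
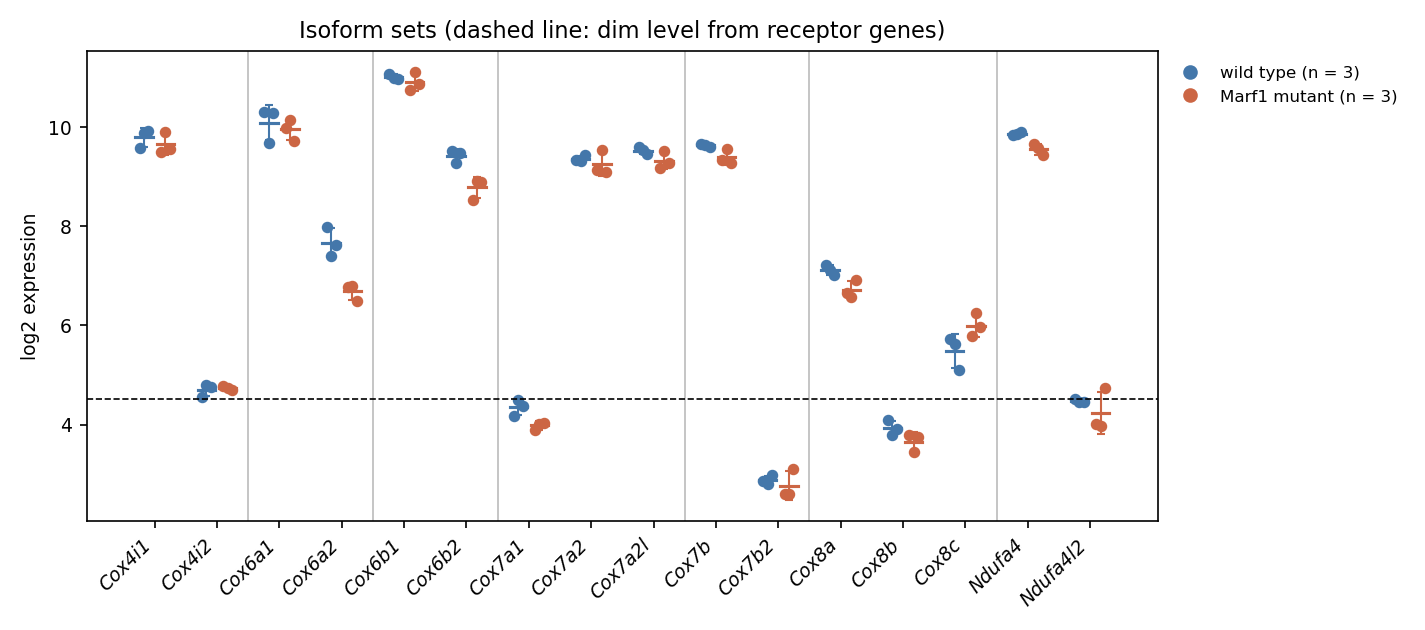
Log2 expression of the isoform sets of complex IV and of Ndufa4, with 1 point per array, the mean (horizontal bar) and SD (whisker) of 3 arrays per genotype, and the dim level of 4.51 dashed. Cox6a2 and Cox6b2 are lower on every mutant array, Cox6a1 and Cox6b1 overlap between the genotypes, and Cox7a1, Cox7b2 and Cox8b lie under the dashed line.

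The other complex IV genes lay near their wild-type level. Cox4i1, Cox7a2, Cox7a2l and Cox7b had log2 fold changes of -0.14, -0.10, -0.20 and -0.25 (adjusted p 0.402 to 0.823), and the 2 genes of subunit 5 had 0.16 (Cox5a) and -0.04 (Cox5b). Cox6c had -0.09, at 11.47 ± 0.02 in wild type and 11.38 ± 0.14 in the mutant. Over the 17 genes 1 fell and 0 rose (5.88% called, against 10.4% of all genes and 16.2% above the dim level). Before adjustment (limma, p under 0.05) 4 were lower (23.5%, against 13.5% and 20.2%) and 1 higher. The median log2 fold change was -0.14, and -0.01 after cyclic loess.

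The ATP synthase showed changes in both directions within a single part, the ring of c subunits that turns in the membrane as protons pass. Atp5g1, Atp5g2 and Atp5g3 encode the same mature c subunit behind different import leaders. Atp5g1 fell from 7.74, 7.79 and 7.85 in wild type to 6.67, 6.95 and 6.94. Atp5g3 rose from 8.21, 8.57 and 8.25 to 9.09, 9.55 and 9.72. Atp5g2 stood at 8.64, 8.85 and 8.89 against 8.17, 8.62 and 8.27. In each case the genotypes did not overlap. The log2 fold changes were -0.94 (SE 0.14, adjusted p = 0.00706) for Atp5g1, 1.11 (SE 0.20, adjusted p = 0.0160) for Atp5g3 and -0.44 (SE 0.17, adjusted p = 0.188) for Atp5g2, by limma. The second probe set of Atp5g1 gave -0.78 (adjusted p = 0.0148), and the 3 of Atp5g2 gave -0.44, -0.46 and -0.43. On the last of these the genotypes overlapped, with 8.49 on mutant replicate 2 and 8.48 on wild-type replicate 1.

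Atp5g1 passed in all 15 alternative fits. The call of Atp5g3 was lost without wild-type replicate 1 (adjusted p = 0.0709), wild-type replicate 3 (0.0716) or mutant replicate 2 (0.0576), with log2 fold changes of 1.04 to 1.06. The F1 head, where ATP is made, had 5 measured genes, of which 1 fell and 0 rose (20% called, against 10.4% of all genes). Atp5e, the small epsilon subunit of the central stalk, went from 10.30, 10.27 and 10.34 to 9.43, 9.85 and 9.43 without overlap (log2 fold change -0.73, SE 0.16, 1.66-fold lower, limma adjusted p = 0.0327). Its call was the least secure of the 6. It was lost without any 1 of the arrays except mutant replicate 2, at adjusted p of 0.0623 to 0.121. The catalytic beta subunit Atp5b stood at 10.16, 10.30 and 10.13 against 9.78, 10.04 and 9.40 (-0.46, SE 0.19, adjusted p = 0.222), and the alpha subunit Atp5a1 overlapped between genotypes (0.12, SE 0.15). Atp5c1 and Atp5d had -0.28 and 0.27.

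**Figure D4:**
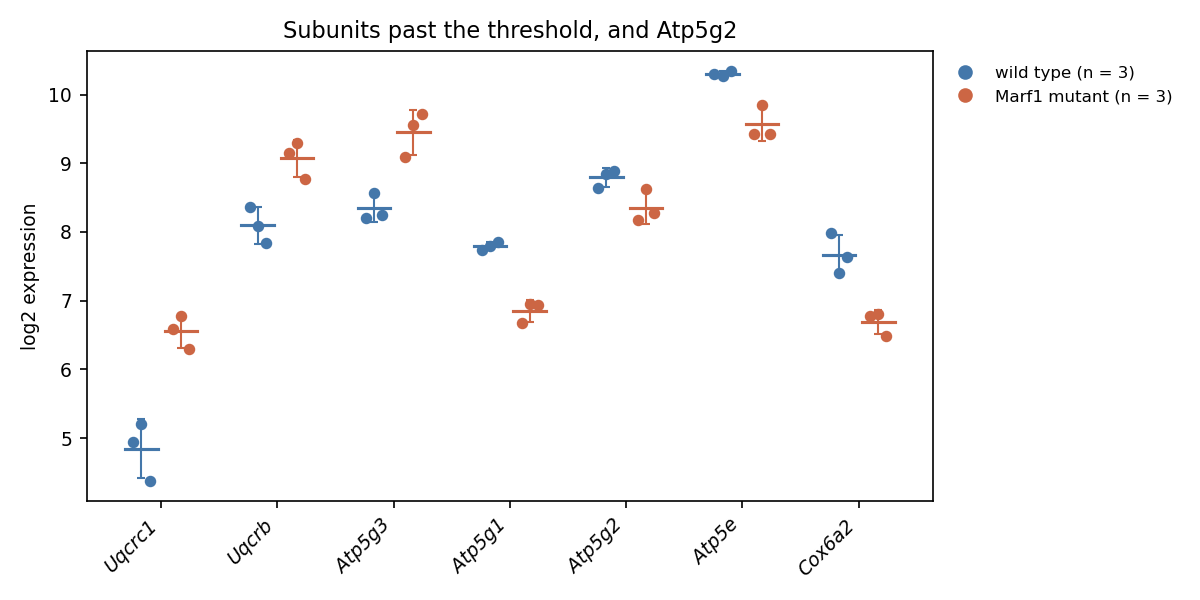
Log2 expression of the 6 subunit genes past the threshold and of Atp5g2, with 1 point per array, the mean (horizontal bar) and SD (whisker) of 3 arrays per genotype. The mutant points of Uqcrc1, Uqcrb and Atp5g3 all lie above and those of Atp5g1, Atp5g2, Atp5e and Cox6a2 all below the wild-type points.

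The peripheral stalk, which holds the head against rotation, had 4 measured genes and 0 past the threshold in limma. At an unadjusted p under 0.05, 2 were lower (50%) and 1 higher (25%), against 13.5% and 11.0% of all genes. Atp5o, the OSCP subunit that joins stalk and head, differed by -0.46 (SE 0.17, adjusted p = 0.170) and Atp5h -0.44 (SE 0.18, adjusted p = 0.215), while Atp5pb had 0.37 (SE 0.13, adjusted p = 0.160). The 5 small membrane subunits also had 0 past the threshold, with 2 lower (40%) and 0 higher at an unadjusted p under 0.05. They lay between -0.37 for Atp5k and 0.13 for Atp5l, which had 6 probe sets, all between 0.13 and 0.20. Atp5mpl, the complex V gene with the highest values, stood at 10.61, 10.75 and 10.50 in wild type and at 10.12, 10.61 and 10.57 in the mutant, overlapping (-0.19, SE 0.17). Over the 17 genes of the complex 17.6% were called, against 10.4% of all genes and 16.2% above the dim level. The median was -0.28, and -0.14 after cyclic loess. At an unadjusted p under 0.05 in limma 8 genes were lower (47.1%) and 2 higher (11.8%). These shares were 13.5% and 11.0% over all genes, and 20.2% and 16.1% over genes above the dim level.

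The sequences before the start sites of the c subunit genes are printed because these mRNAs moved apart, and those of Atp5e and Uqcrc1 because these passed the threshold. Uqcrb and Cox6a2, which also passed, had no entry in the sequence table. Each is the 250 bases before a RefSeq start of GRCm38.p6, 5′ to 3′ on the strand of the gene. Capitals mark matches on either strand to GCGCANGCG (the core of the motif of NRF1, a regulator of respiratory genes), CCGGAAG (the motif of ETS factors such as GABPA) or AAGATGGC (the motif of YY1). No window here held 2 kinds of match, and matches that overlap are counted once. The windows are chr11:96075632-96075881, chr15:102671048-102671297, chr2:73911327-73911576 and chr2:174464102-174464351, each on the minus strand, and chr9:108936398-108936647 on the plus strand.
Atp5g1: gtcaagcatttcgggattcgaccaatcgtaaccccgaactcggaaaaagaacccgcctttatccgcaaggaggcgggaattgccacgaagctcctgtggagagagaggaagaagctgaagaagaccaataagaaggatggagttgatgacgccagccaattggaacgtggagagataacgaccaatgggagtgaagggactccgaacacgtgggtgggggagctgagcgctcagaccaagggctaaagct
Atp5g2: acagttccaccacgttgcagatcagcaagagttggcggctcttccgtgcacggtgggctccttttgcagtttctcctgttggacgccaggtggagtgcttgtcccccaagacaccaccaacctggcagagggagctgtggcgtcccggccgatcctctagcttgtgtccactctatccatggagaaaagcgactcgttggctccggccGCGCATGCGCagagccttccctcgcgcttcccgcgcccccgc
Atp5g3: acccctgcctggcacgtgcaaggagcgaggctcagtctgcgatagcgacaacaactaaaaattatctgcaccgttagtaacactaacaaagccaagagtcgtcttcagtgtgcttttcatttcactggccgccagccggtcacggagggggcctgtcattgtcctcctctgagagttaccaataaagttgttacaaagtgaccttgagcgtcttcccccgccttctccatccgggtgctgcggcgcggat
Atp5e: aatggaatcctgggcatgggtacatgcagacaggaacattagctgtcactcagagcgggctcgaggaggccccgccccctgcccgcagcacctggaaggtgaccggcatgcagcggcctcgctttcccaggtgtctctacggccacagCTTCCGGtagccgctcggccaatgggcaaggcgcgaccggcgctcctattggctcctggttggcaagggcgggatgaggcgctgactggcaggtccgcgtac
Uqcrc1: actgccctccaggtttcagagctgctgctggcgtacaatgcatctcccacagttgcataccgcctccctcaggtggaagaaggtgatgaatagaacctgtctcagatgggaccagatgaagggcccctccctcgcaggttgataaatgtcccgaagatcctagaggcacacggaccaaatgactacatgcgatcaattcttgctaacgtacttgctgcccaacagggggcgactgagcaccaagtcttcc

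Atp5g2, the c subunit gene that did not pass, held 1 NRF1 stretch beginning 42 bases before the start, and Atp5e held 1 ETS match beginning 102 bases before it. The windows of Atp5g1, Atp5g3 and Uqcrc1 held none of these letters. Of the 82 members 67 had 72 such windows, and 19.4% of these windows held the NRF1 core, 16.7% the ETS motif and 1.39% the YY1 motif. Over all 32851 RefSeq windows the shares were 5.16%, 6.91% and 1.56%. The 13 members with the NRF1 core had a median log2 fold change of -0.24 and the other matched members -0.18. For the ETS motif the medians were -0.14 over 12 members with it and -0.24 over the others.

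While the subunits moved little, several factors that transcribe or maintain mitochondrial DNA, or that regulate respiratory genes from the nucleus, were much higher in the mutant. Of 20 such genes 7 rose (35%) and 0 fell, against 6.40% of all genes higher, and 1232 of the 12397 genes above the dim level. The median log2 fold change was 0.41, against -0.04 for all genes and -0.09 above the dim level. Before adjustment (limma, p under 0.05) 10 were higher (50%) and 2 lower (10%). These shares were 11.0% and 13.5% over all genes, and 16.1% and 20.2% above the dim level. Without mutant replicate 3, 8 rose and 0 fell. The list was chosen with earlier results of these data known. Gabpa, the DNA-binding subunit of an ETS factor of respiratory promoters, rose from 5.16, 5.00 and 5.29 to 9.35, 9.14 and 8.85. This log2 fold change of 3.96 (SE 0.17, adjusted p = 5.76e-05) was the largest of the list. Its partner Gabpb1 stood at 8.03, 8.19 and 7.63 against 8.19, 8.53 and 8.0 (0.29, SE 0.21, adjusted p = 0.540).

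Tfam, which packages mitochondrial DNA and starts its transcription, rose from 6.13, 6.00 and 6.79 to 9.58, 9.77 and 8.67 (log2 fold change 3.03, SE 0.33, adjusted p = 0.00162). Yy1, a zinc finger factor, rose from 5.52, 5.93 and 5.07 to 8.63, 8.13 and 8.03 (2.76, SE 0.26, adjusted p = 7.92e-04). The groups were far apart for each of the trio. Further rises were those of the elongation factor Tefm (2.09), the termination family gene Mterf3 (1.49), the polymerase subunit Polg2 (1.44) and the coactivator Ppargc1a (1.26), and each of the 7 genes passed in all 15 alternative fits. The catalytic polymerase Polg (0.10, SE 0.13) and the RNA polymerase Polrmt (-0.30, SE 0.13) did not pass, nor did Nrf1 (0.55, SE 0.20, adjusted p = 0.174).

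**Figure D5:**
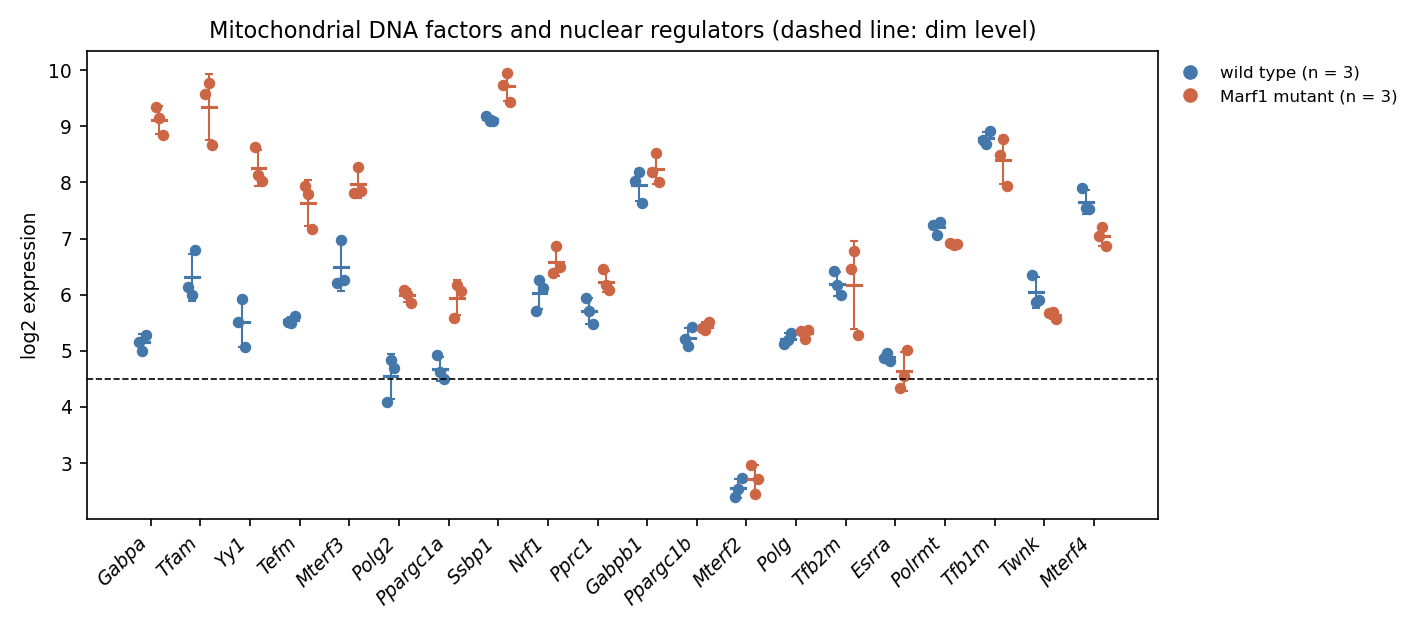
Log2 expression of the 20 mitochondrial DNA factors and nuclear regulators, sorted by fold change, with 1 point per array, the mean (horizontal bar) and SD (whisker) of 3 arrays per genotype, and the dim level of 4.51 dashed. The mutant points of the first 7 genes, Gabpa to Ppargc1a, all lie above the wild-type points, and those of Polg, Tfb2m and Esrra overlap with them.

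Among genes that feed or build the chain, some rose and a few fell past the threshold, at shares near or under that of all genes above the dim level. Of 30 electron carriers, ubiquinone synthesis enzymes and related genes outside the symbol rule, 4 rose and 1 fell (16.7% called, against 10.4% of all genes and 16.2% above the dim level). The median log2 fold change was -0.10, and 0.00 after cyclic loess. Besides Cyc1, these were Etfdh, which passes electrons from fatty acid oxidation to ubiquinone (1.82, SE 0.16, adjusted p = 6.09e-04), the phosphate carrier Slc25a3 (1.04, adjusted p = 0.00423) and Hccs, which attaches heme to cytochrome c (0.78, adjusted p = 0.0480). The wild-type values of Etfdh, at 4.76, 4.58 and 4.52, lay just above the dim level. Etfb, a subunit of the flavoprotein that supplies Etfdh, fell from 7.68, 7.59 and 7.99 to 6.60, 7.10 and 6.42 (-1.05, SE 0.21, adjusted p = 0.0244). Etfdh and Etfb, which act in sequence, thus lay on opposite sides, each without overlap. The call of Hccs was lost without each array except mutant replicate 3 (adjusted p up to 0.150), and that of Etfb without each array except mutant replicates 2 and 3 (up to 0.0968).

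Of 35 assembly factors of complexes II to V, 4 rose and 1 fell (14.3% called, against the same 10.4% and 16.2%). The median was -0.24, and -0.10 after cyclic loess. Before adjustment (limma, p under 0.05) 5 were higher (14.3%) and 10 lower (28.6%). These shares were 11.0% and 13.5% over all genes, and 16.1% and 20.2% over genes above the dim level. Coa3 (1.34), Cox11 (1.27) and Cox15 (0.93), which serve complex IV, and Tmem70 (0.97), which serves the ATP synthase, rose. Cox10, which with Cox15 makes the heme of complex IV, fell (-0.81). These 5 calls had adjusted p of 0.0226 to 0.0412, and each was lost in several fits with 1 array left out. The list had 0 to 1 rises and 0 to 1 falls without any 1 of the arrays other than mutant replicate 3, and 4 and 1 without that array. Of 17 complex I assembly factors only Ndufaf1 passed (4.64, 5.88% called), and the median was -0.03. The mitochondrially encoded subunits had no probe set that named 1 gene and were not analysed here.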

How the data were processed

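RNA of 3 wild-type and 3 Marf1 mutant oocyte samples was amplified, biotin-labelled and hybridised, per the labels' protocols. The authors deposited a log2 value for each probe set on 6 arrays, rounded to 2 decimals. The authors' processing involved GCOS, Affymetrix Expression Console 1.1 and RMA, per the submitters' processing notes. No genome build of the array is given in the sources used here.

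All 35556 probe sets entered limma 3.58.1 in R 4.3.3 (lmFit, eBayes, genotype as the only term, two-sided), with Benjamini-Hochberg adjustment over all of them. Gene names came from the platform annotation, with 21789 rows naming 1 gene, 1621 several and 12146 not named here. A gene with several rows was read from the row with the highest mean, which concerned 17 members. Which locus each row of such a gene reads could not be told, so its rows may not be independent measurements. Unadjusted 95% intervals used the moderated standard error. The fit was tested on simulated data.

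The text names Marf1, the members past the threshold, the 3 furthest changes per complex at an unadjusted p under 0.05, the members of highest and lowest level per complex, isoform sets, the Sdh genes, the complex I core, and members of the other pathway lists past the threshold. Other genes were named after their values were seen. Members and lists were chosen with earlier results of these data known. The labels do not tie samples to different mice, and a p-value therefore reflects only how these samples vary, which may be technical. The number of arrays limits the precision.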

Additional observations from a re-analysis of the deposited data

How the results depend on the processing

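Over 15 alternatives the subunit genes past the threshold numbered 1 to 3 higher, with 3 in the fit reported. The number lower was 3 in that fit, 5 after quantile normalization, with an intensity trend or with array weights, 6 over rows above the median level and 7 over 1 row per gene. Leaving out 1 array in turn gave 1 to 3 higher, 1 to 3 lower and 1368 to 2804 probe sets past the threshold, against 2765. The median log2 fold change of the members ran from -0.26 to -0.06. Uqcrc1 and Atp5g1 passed in every alternative. Of 25 named genes past the threshold 14 passed with each array left out. Median centring removed the calls of Uqcrb, Atp5e and Hccs, and of all 4 assembly factors of complexes II to V that rose, and cyclic loess that of Cox10. With the replicate number as a block 3 subunits were higher and 2 lower, the calls of Atp5e, Hccs, Etfb and Cox11 being lost, and 1946 probe sets passed. Same-numbered wild-type and mutant arrays deviated together at r = 0.147, -0.0992 and 0.0267, and differently numbered ones at -0.216 to 0.183. With so few arrays these values cannot tell whether the numbers pair the samples. No named gene reversed a call. Background was not recorded with the values, and levels near the dim level have no settled order.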
